A study of Homo sapiens with 4 samples.

Results

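The genes for mitochondrial ribosomal proteins were examined for peaks of RNA polymerase II (Pol II). The set was taken by name, as every protein-coding gene of GENCODE release 44 on GRCh38 whose symbol starts with MRPL or MRPS followed by a digit. It held 78 of 20033 protein-coding genes, 49 of them MRPL genes and 29 MRPS genes, on 21 chromosomes. The data came from chromatin immunoprecipitation with an antibody against Pol II followed by sequencing (ChIP-seq) in SK-OV-3, an established human ovarian cancer cell line. Cells carried a short hairpin RNA against RRN3 (shRRN3), an initiation factor of RNA polymerase I, or, as the control, one directed at LacZ, a gene of bacteria (shLacZ), and the study asked how RRN3 bears on transcription by Pol II. Per the study's methods the hairpins were delivered stably by lentivirus, and which hairpin sequence against RRN3 was used for ChIP-seq is not given in the sources used here. Each hairpin had 1 Pol II library and 1 input library, the latter not analysed here, so there were no replicates and no difference between the hairpins could be set against a spread between samples.

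Each Pol II library was represented by a list of peaks, stretches of the genome where reads of the library piled up, with a score for each peak. There were 4014 peaks for shLacZ and 14363 for shRRN3. The score was read as 10 times the −log10 of the peak's p-value. It depends on sequencing depth, which the lists do not give, so scores were ranked within a list, as a percentile of all peaks of that list, and were not compared between lists. RRN3 itself had no peak at its start in either list, which is no measure of the knockdown. Of the cell line's marker genes, PAX8 had a peak at its start in both lists, and ERBB2 had none in either. KRT8, KRT18, EPCAM and VIM had one at the start in shRRN3 alone. Those of KRT8 and KRT18, which start close together, had the same score, 120.86, and so may be a single peak. VIM also had a peak in or near the gene in shLacZ, away from its start.

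Mitochondria translate the few proteins that their own genome encodes with a ribosome of their own, the mitoribosome. Its RNAs come from the mitochondrial genome, but all of its proteins are encoded in the nucleus, transcribed by Pol II, made in the cytosol and imported. MRPL genes are named for the large subunit, which forms peptide bonds, and MRPS genes for the small subunit, which reads the messenger RNA, although the proteins of MRPS30 and MRPS18A are found in the large subunit. Some members descend from bacterial ribosomal proteins and others are particular to mitochondria.

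A gene was counted as having a peak at its transcription start site (TSS) when the midpoint of a peak lay within 1 kb of the 5′ end of the annotated gene. In shLacZ, 18 of the 78 members had a TSS peak, which was 23.1% (exact 95% Clopper-Pearson interval 14.3 to 34.0), beside 7.56% of all protein-coding genes. In shRRN3 there were 49, or 62.8% (51.1 to 73.5), beside 23.7% of all protein-coding genes. These intervals, like the others below, cover counting error over the genes only, and they describe these libraries and not the conditions. In both lists the members' share lay above the share over all genes, with the whole interval above it.

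The 18 members with a TSS peak in shLacZ all had one in shRRN3 too, which was 23.1% of members in both lists beside 6.41% of all protein-coding genes. The interval of this share of 18 of 18 was 81.5% to 100%, and over all protein-coding genes 84.8% of the genes with a shLacZ peak also had a shRRN3 peak. A TSS peak in shRRN3 alone was found for 31 members, or 39.7% (28.8 to 51.5), beside 17.3% of all protein-coding genes. A TSS peak in shLacZ alone was found for 0 of the 78 members, beside 1.15% of all protein-coding genes, and 29 members (37.2%) had no TSS peak in either list, beside 75.1% of all protein-coding genes.

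The number of members with a TSS peak was 2.72 times as high in shRRN3 as in shLacZ, and the number over all protein-coding genes was 3.14 times as high. The length of the lists moved with this result. When just the 3920 best-scoring shRRN3 peaks were used, the number that shLacZ had on chromosomes 1 to 22, X and Y, 23 members (29.5%) kept a TSS peak in shRRN3, beside 9.74% of all protein-coding genes. Of these, 10 members (12.8%) had it in shRRN3 alone, beside 5.50% of all protein-coding genes. Then 5 members (6.41%), MRPL10, MRPL17, MRPL20, MRPL54 and MRPS6, had a TSS peak in shLacZ alone, beside 3.32% of all protein-coding genes. The part of depth and of list length in the larger number of peaks in shRRN3 was not tested.

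Among the MRPL genes, 12 of 49 had a TSS peak in shLacZ (24.5%, 13.3 to 38.9) and 28 in shRRN3 (57.1%, 42.2 to 71.2). Among the MRPS genes, 6 of 29 had one in shLacZ (20.7%, 7.99 to 39.7) and 21 in shRRN3 (72.4%, 52.8 to 87.3). The intervals of the MRPL and MRPS genes overlapped in each list.

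**Figure D1:**
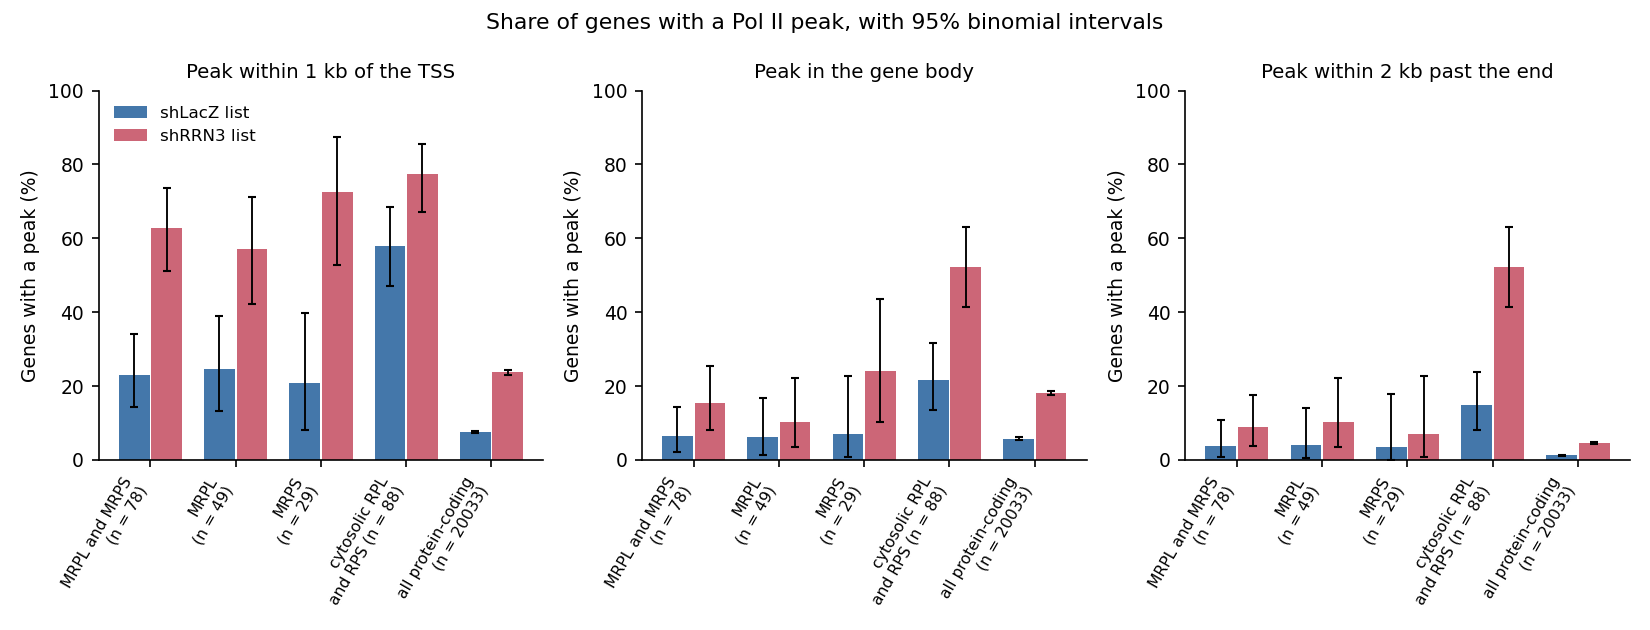
Share of genes (%) with a Pol II peak at the TSS, in the gene body and within 2 kb past the gene end, in the shLacZ list (blue) and the shRRN3 list (red), with exact 95% binomial intervals as error bars. At the TSS the 78 mitochondrial ribosomal protein genes stand at 23.1% and 62.8%, between all protein-coding genes (7.56% and 23.7%) and the cytosolic ribosomal protein genes (58.0% and 77.3%), while in the body the members' intervals include the share over all genes.

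Among the large-subunit members with a TSS peak in both lists, MRPL10, whose protein forms the base of the stalk that recruits translation factors, had the highest score in shLacZ. Its peak scored 152 there (percentile 90.6) and 80.8 in shRRN3 (percentile 56.4). Both peaks also lay within 1 kb of the start of LRRC46, 93 bp from that of MRPL10 on the opposite strand. MRPL18, whose bacterial homolog binds the smallest ribosomal RNA, scored 117 in shLacZ (percentile 84.8) and 166 in shRRN3 (percentile 90.0). MRPL15, MRPL54 and MRPL57 followed in shLacZ with 87.6, 79.7 and 77.96, and in shRRN3 they stood at percentiles 94.1, 59.3 and 93.2.

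MRPL53 and MRPL46 stood among the highest members of the shRRN3 list. Both encode proteins particular to the mitochondrial large subunit. MRPL53 scored 76.1 in shLacZ (percentile 62.8) and 346 in shRRN3 (percentile 98.1). MRPL46 scored 73.6 in shLacZ (percentile 60.3) and 379.5 in shRRN3 (percentile 98.6), the highest rank of any member in either list. MRPL40, another mitochondria-specific protein, scored 69.4 in shLacZ (percentile 55.4) and stood at percentile 83.9 in shRRN3. The remaining large-subunit members with a peak in both lists were MRPL35, MRPL20, MRPL14 and MRPL17, with shLacZ scores of 69.2, 63.2, 54.2 and 54.2.

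Among the small-subunit members, MRPS35, a mitochondria-specific protein, scored 99.2 in shLacZ (percentile 79.0) and 292 in shRRN3 (percentile 97.4). MRPS16, which has a bacterial homolog, scored 96.1 in shLacZ and 143 in shRRN3, at percentiles 77.7 and 85.9. MRPS6 scored 76.1 in shLacZ (percentile 62.8) and stood at percentile 51.8 in shRRN3. MRPS11 shared its peak with MRPL46 and so had the same scores. MRPS25 and MRPS18C completed the group, with shLacZ scores of 64.6 and 63.8, and MRPS18C stood at percentile 96.6 in shRRN3.

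Over the 18 members with a peak in both lists, the percentile was higher in shRRN3 for 15 and lower for MRPL10, MRPL54 and MRPS6. The percentiles come from lists of 4014 and 14363 peaks, with median scores of 66.05 and 74.76. A similar score can take a different rank in each list, so this count is no measure of change at a gene. The part of list length in it was not tested. The percentile was also higher in shRRN3 for 76.7% of the 1284 protein-coding genes with a TSS peak in both lists. The members' median percentile was 61.5 in shLacZ and 84.9 in shRRN3, beside 60.2 and 83.6 over those 1284 genes.

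The 31 members with a TSS peak in shRRN3 alone reached lower ranks, with a median percentile of 61.4, beside 57.6 over all protein-coding genes of that class. Their scores ranged from 50.5 for MRPL19 to 190 for MRPL30. The large-subunit members with the highest scores were MRPL30 (189.77), MRPL3 (186), MRPL1 (172.0), MRPL27 (166), MRPL49 (138), MRPL24 (130.3) and MRPL12 (118). MRPL1 lies in the side stalk near which spent transfer RNA leaves, MRPL27 reaches toward the peptidyl transferase centre, and MRPL12 forms the mobile part of the factor-binding stalk whose base is MRPL10. MRPL12 and MRPL10 thus encode neighbours in the same stalk, and MRPL12 had a peak in shRRN3 alone while MRPL10 had one in both lists. The MRPS members with the highest scores were MRPS28 (128), MRPS10 (123) and MRPS30 (110.07). The lowest ranks were those of MRPL19 and MRPS2, at percentiles 1.76 and 2.18, with scores just above the lowest of the list, 50.

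**Figure D2:**
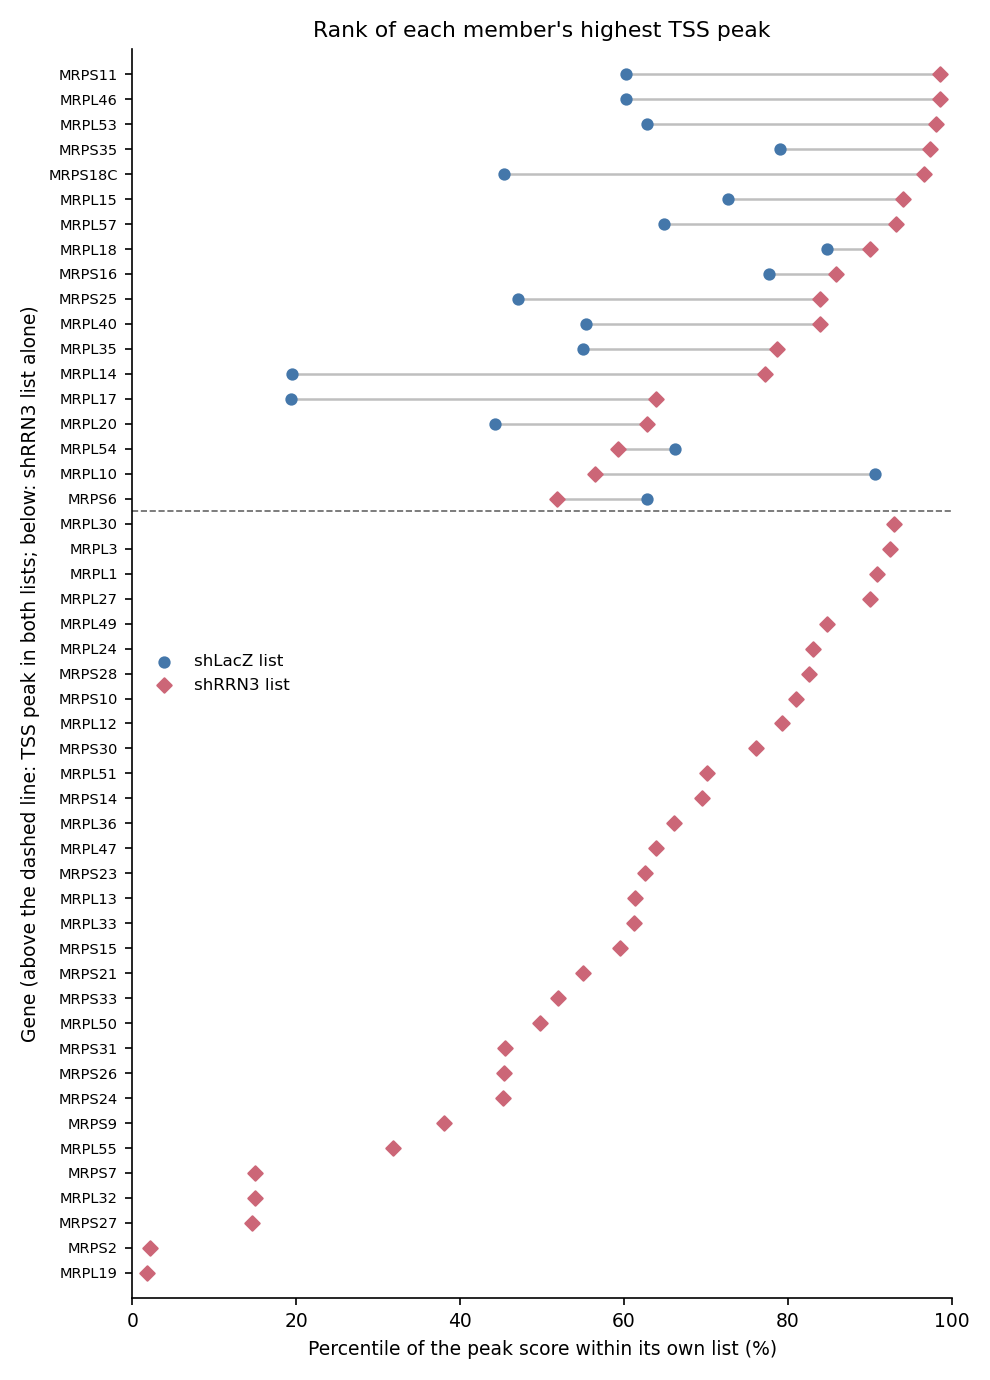
Percentile of the score (x axis, % of the peaks of the same list) of the highest-scoring TSS peak of each of the 49 members with one (y axis), as blue circles for shLacZ and red diamonds for shRRN3, joined by a grey line where both lists have a peak. Above the dashed line, 15 of 18 members lie further right in shRRN3, the longer list, and MRPL10, MRPL54 and MRPS6 lie further left. Below it, the members with a peak in shRRN3 alone range from percentile 1.76 to 92.9.

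Of the 29 members with no TSS peak in either list, 26 had no peak in the body or within 2 kb past the end either. They were MRPL4, MRPL9, MRPL11, MRPL16, MRPL21, MRPL22, MRPL23, MRPL28, MRPL34, MRPL38, MRPL39, MRPL41, MRPL42, MRPL43, MRPL44, MRPL45, MRPL48, MRPL52, MRPL58, MRPS5, MRPS12, MRPS17, MRPS18A, MRPS18B, MRPS34 and MRPS36. MRPL2, MRPL37 and MRPS22 had peaks elsewhere in or past the gene. The nearest peak to the TSS of these 29 members lay at a median distance of 217000 bp in shLacZ and 54100 bp in shRRN3, and the closest was that of MRPS36, 1384 bp from its TSS in shRRN3. A missing peak says that no stretch passed the authors' peak threshold, not that Pol II was absent.

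The TSS peaks of the members were centred close to the start. In shLacZ the midpoints of the highest-scoring peaks ranged from 273 bp before the TSS (MRPL40) to 262 bp past it (MRPS6), with a median of 35.5 bp past it, and in 16 of 18 members (88.9%) the midpoint was within 250 bp, beside 71.5% of the protein-coding genes with a TSS peak. In shRRN3 they ranged from 336 bp before (MRPL50) to 709 bp past the TSS (MRPS2), with a median of 66.0 bp past it, and 36 of 49 (73.5%) lay within 250 bp, beside 67.5%. Counted from the start of the canonical transcript, the midpoints of MRPS2 and MRPL51 lay 11 and 89 bp past it. Midpoints lay past the TSS in 11 of 18 members in shLacZ (61.1%, 35.7 to 82.7) and in 29 of 49 in shRRN3 (59.2%, 44.2 to 73.0), beside 58.5% and 51.9% over all protein-coding genes with a TSS peak. The highest-scoring TSS peak touched exon 1 of the canonical transcript in 16 of 18 members in shLacZ and in 46 of 49 in shRRN3.

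Peaks of the 18 members found in both lists overlapped between the lists in 18 of 18 by at least 1 bp, and in 12 of 18 by at least 50% of both peaks. Over the shLacZ peaks of the 1284 genes these shares were 97.3% and 69.0%. Their midpoints differed by a median of 98 bp between the lists, beside 97.5 bp over the 1284 genes, and by at most 267 bp (MRPL40). These peaks had a median width of 528 bp in the shLacZ list and of 733 bp in the shRRN3 list. In 12 of 18 members the peak was wider in shRRN3, beside 82.4% of the 1284 genes. The exceptions were MRPL10, MRPL14, MRPL40, MRPL57, MRPS6 and MRPS16, and for MRPL14, MRPL57 and MRPS16 the shRRN3 list held 2 separate peaks at the TSS where shLacZ held 1. MRPS18C showed the reverse, with 2 peaks in shLacZ at chr4:83455580-83455880 and chr4:83455900-83456259 and 1 peak in shRRN3 at chr4:83455412-83456415 that spanned both.

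**Figure D3:**
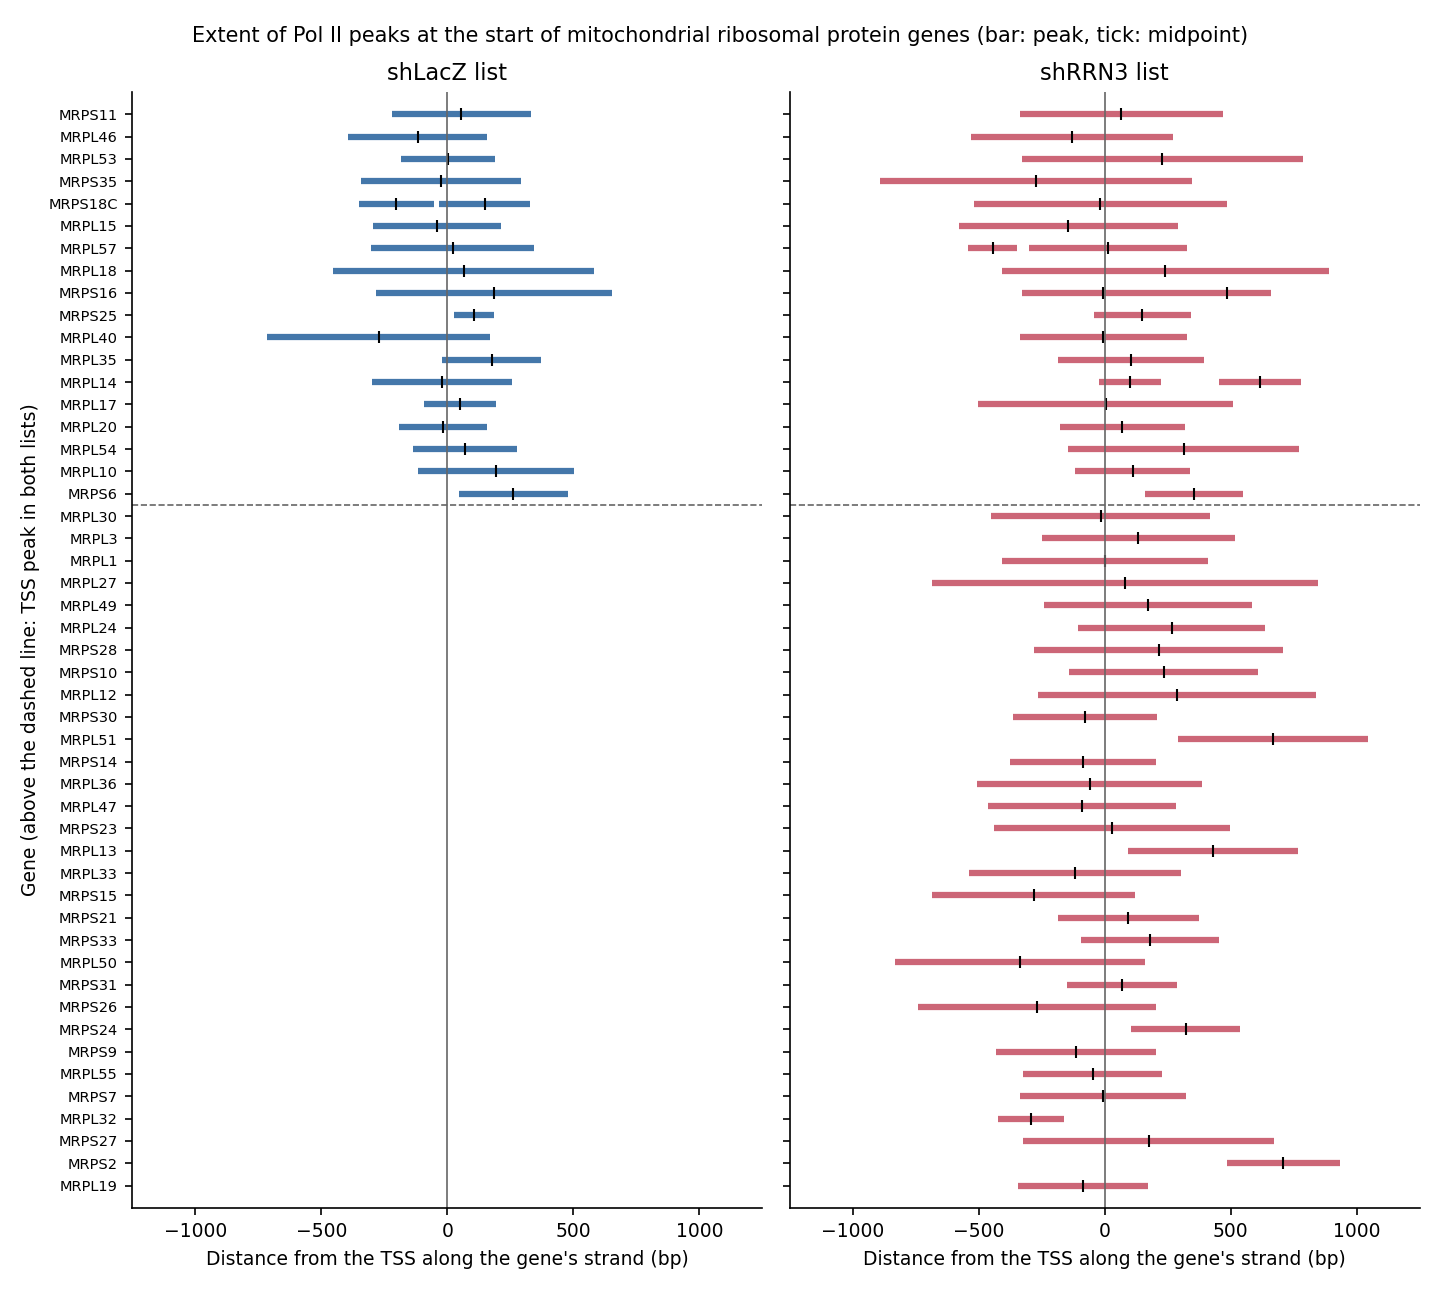
Extent of each Pol II peak at the TSS of the 49 members (y axis), drawn as a bar with a tick at its midpoint against the distance from the TSS along the gene's strand (x axis, bp), for shLacZ (left) and shRRN3 (right). Most bars cross the vertical line at the TSS. In shRRN3 the highest-scoring peaks of MRPL13, MRPL51, MRPS2, MRPS6 and MRPS24 lie wholly past it, and that of MRPL32 lies wholly before it. The midpoints of MRPL51 and MRPS2 lie 668 and 709 bp downstream, but 89 and 11 bp past the start of the canonical transcript. The lower-scoring shRRN3 peaks of MRPL14 and MRPS16 lie wholly past the TSS, and that of MRPL57 wholly before it.

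Many members start close to another gene on the opposite strand, so that a peak there may belong to either or both. Such genes are called head to head here. The order of the starts was not checked, so genes that overlap at their starts were counted too. Starts are the 5′ ends of the annotated genes, and the canonical start of MRPL36 lies 1529 bp from the one used. The start of another protein-coding gene lay within 1 kb on the opposite strand for 27 of 78 members, which was 34.6% (24.2 to 46.2), beside 13.4% of all protein-coding genes. MRPL18 and TCP1, a subunit of the chaperonin that folds actin and tubulin, start 109 bp apart. MRPL49 and FAU, which encodes a cytosolic ribosomal protein, start 6 bp apart, and MRPL36 and MRPL47 each start 41 bp from a gene of respiratory complex I, NDUFS6 and NDUFB5. MRPS12 is paired with SARS2, the mitochondrial seryl-tRNA synthetase, and MRPL43 with TWNK, the helicase of the mitochondrial genome, and neither of these members had a TSS peak in either list.

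Of the 27 head-to-head members, 8 (29.6%, 13.8 to 50.2) had a TSS peak in shLacZ and 18 (66.7%, 46.0 to 83.5) in shRRN3, beside 14.1% and 48.7% of all head-to-head protein-coding genes. Of the 48 members with no other protein-coding start within 1 kb, 9 (18.8%, 8.95 to 32.6) had one in shLacZ and 29 (60.4%, 45.3 to 74.2) in shRRN3, beside 6.28% and 19.3% of all such genes. Some of these 48 had the start of a non-coding gene close by, such as MRPS35 with MRPS35-DT. Of the 42 members with no other annotated start of any kind within 1 kb, a split added after the data were seen, 7 (16.7%) had a TSS peak in shLacZ and 23 (54.8%) in shRRN3, beside 4.98% and 16.0% of all such protein-coding genes. The intervals of the members with and without a neighbour overlapped in each list.

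**Figure D4:**
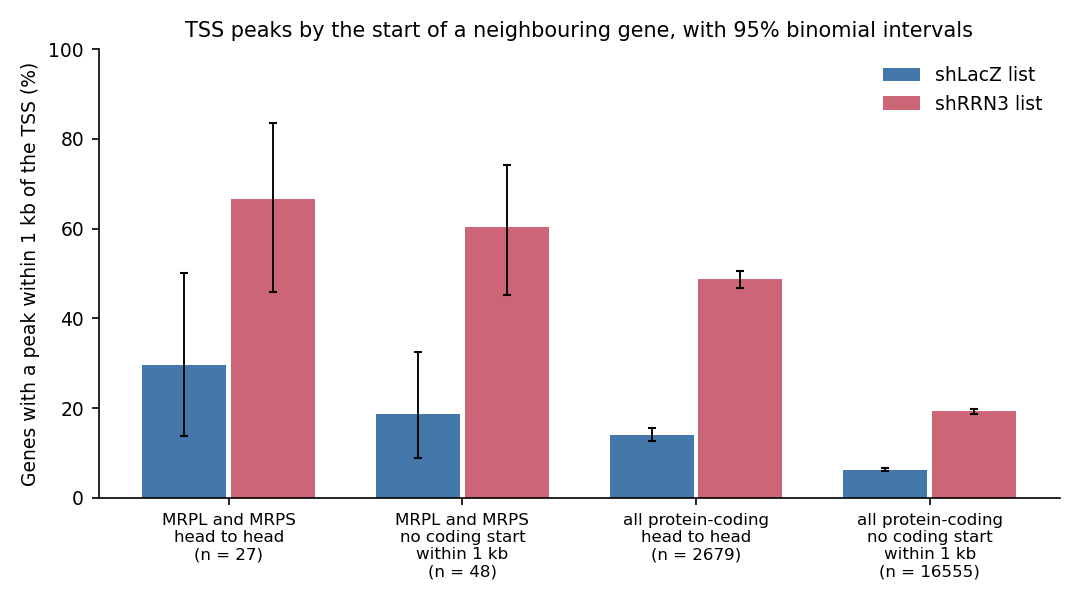
Share of genes (%) with a Pol II peak within 1 kb of the TSS in shLacZ (blue) and shRRN3 (red), for members and for all protein-coding genes, split into genes with a start of another protein-coding gene within 1 kb on the opposite strand (head to head) and genes with no other protein-coding start within 1 kb, with exact 95% binomial intervals. Members with no close start stand at 18.8% and 60.4%, and all such genes at 6.28% and 19.3%.

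MRPL46 and MRPS11 were the sole pair of members whose starts lay within 100 kb of each other, and one is a large-subunit and the other a small-subunit gene. Their starts on chromosome 15 are 63 bp apart on opposite strands, and a single peak covered both in each list, at chr15:88467233-88467782 in shLacZ and at chr15:88467118-88467920 in shRRN3. The 62 bases between the 2 starts, chr15:88467391-88467452 of GRCh38.p14 read along the strand of MRPL46 (minus) from RefSeq's promoter sequences, are shown because both peaks covered them whole.
MRPL46-MRPS11: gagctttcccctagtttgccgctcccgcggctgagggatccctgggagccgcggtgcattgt

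Peaks in the gene body, with the midpoint inside the gene and over 1 kb from the TSS, were found for 5 members in shLacZ (6.41%, 2.11 to 14.3), beside 5.77% of all protein-coding genes. In shRRN3 they were found for 12 members (15.4%, 8.21 to 25.3), beside 18.1%. Both shares were close to those over all genes, and the members were shorter, with a median length of 11900 bp against 27500 bp. With peaks of both lists at or above a score of 66.05, the shLacZ median, 5 members (6.41%) had a body peak in shRRN3 and 5 in shLacZ, beside 12.2% and 2.61% of all protein-coding genes.

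Several body peaks lay at another start of the same gene. The peaks of MRPL37, a mitochondria-specific large-subunit protein, scored 76.0 in shLacZ and 119 in shRRN3 and were centred 63 bp before and 55 bp past the start of its canonical transcript, which lies inside the annotated gene. MRPL36 had a shLacZ peak (76.0) 35 bp before its canonical start, and a shRRN3 peak (92.4) 60 bp before the 5′ end of the gene, where NDUFS6 also starts. MRPS27, a small-subunit protein of the RNA-binding pentatricopeptide repeat type, held 4 body peaks in shLacZ and 5 in shRRN3. In each list 1 of them (87.7 in shLacZ, 205.8 in shRRN3) lay at its canonical start beside the start of PTCD2, and peaks of 88.7 and 114 lay in an intron, 11960 and 12158 bp past that start, in shLacZ and shRRN3. Counted from the canonical start, MRPL36, MRPL37 and MRPS27 also had a TSS peak in shLacZ.

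MRPL33 held 11 body peaks in shRRN3 and 1 in shLacZ. Its annotated span of 216371 bp is far longer than its canonical transcript of 8015 bp, and 10 of the 11 midpoints lay outside that transcript. The highest of them (197) lay 175 bp from the start of RBKS, and its neighbour (115) lay 349 bp from that of BABAM2, both of them genes with starts inside that span. MRPS10 held 2 intronic peaks in shRRN3, of 98.1 and 74.4, and MRPS35 held 1 intronic peak of 71.5 in shLacZ, 22492 bp past its TSS, with no body peak in shRRN3. The body peaks of MRPS6, MRPS9, MRPS16, MRPS22, MRPS28, MRPL13, MRPL17 and MRPL19 were found in shRRN3 alone and scored between 50.8 and 67.4.

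Within 2 kb past the gene end, 3 members had a peak in shLacZ (3.85%, 0.8 to 10.8), beside 1.31% of all protein-coding genes, and 7 had one in shRRN3 (8.97%, 3.68 to 17.6), beside 4.54%. The 3 members of shLacZ, MRPS16, MRPL2 and MRPL33, also had one in shRRN3. The peak past MRPS16 was the highest of these, with 377 in shLacZ at chr10:73246896-73247750 and 274 in shRRN3 at chr10:73246606-73248091, and it lay 37 and 11 bp from the start of DNAJC9-AS1. It also lay 68 and 94 bp from the start of DNAJC9, a protein-coding gene. The peak past MRPL2 scored 71.8 and 124 and lay 226 and 465 bp from the start of CUL7, a ubiquitin ligase scaffold. MRPL33 had peaks of 52.5 and 53.0, centred 1240 and 1371 bp past the end of its annotated span. They lay 217608 and 217739 bp past the start of its canonical transcript, which is 8015 bp long. MRPL12 (71.8), MRPS15 (63.0), MRPL20 (58.8) and MRPL17 (51.1) had a peak past the end in shRRN3 alone.

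The promoters of the members were compared with those of all protein-coding genes by letters alone. RefSeq promoter sequences (GRCh38.p14), 250 bases before and 50 after a start, were matched for 69 of 78 members and 15365 protein-coding genes. Not matched were MRPL2, MRPL10, MRPL13, MRPL15, MRPL21, MRPL23, MRPL35, MRPS28 and MRPS36. Motifs were searched on both strands as exact letters, and none of the 6 motifs contains another. A match is a description of the sequence and not a bound site. The classes by TSS peak below use the 5′ end of the annotated gene, while the windows lie at a RefSeq start. Peaks of both lists overlapped the windows of MRPS27 and MRPL37, and a shLacZ peak alone that of MRPL36. By class, MRPS27 and MRPL36 were still counted in shRRN3 alone, and MRPL37 in neither.

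The letters CCGGAAG, the core of sites for ETS factors such as GABPA, which is known for activating nuclear genes of mitochondria, were found in 30 of 69 members, or 43.5% (31.6 to 56.0), beside 14.8% of all promoters. By class the motif was found in 7 of 15 members with a TSS peak in both lists (46.7%, 21.3 to 73.4). It was found in 12 of 29 with one in shRRN3 alone (41.4%, 23.5 to 61.1) and in 11 of 25 with none (interval 24.4% to 65.1%). Among all promoters its share was 23.9% with a TSS peak in both lists, 26.7% with one in shRRN3 alone and 10.9% with none. The members' interval included that share with a peak in both lists and in shRRN3 alone, and lay above it with none. Of the 40 matches, 35 began before the start, and the median position over all 40 was 24 bases before it.

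Of these promoters, 7 are shown as the 100 bases before the RefSeq start, in order to set the motif beside the peaks. MRPL20, MRPL53 and MRPS35 had a TSS peak in both lists, MRPL3 and MRPS31 in shRRN3 alone, and MRPL48 and MRPS18A in neither. Their positions are chr1:1407294-1407393 (minus strand), chr2:74472681-74472780 (minus), chr12:27710732-27710831 (plus), chr3:131502972-131503071 (minus), chr13:40771191-40771290 (minus), chr11:73787774-73787873 (plus) and chr6:43687792-43687891 (minus). Capitals mark CCGGAAG or its reverse complement.
MRPL20: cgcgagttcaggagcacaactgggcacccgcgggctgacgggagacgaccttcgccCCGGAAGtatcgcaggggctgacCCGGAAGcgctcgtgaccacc
MRPL53: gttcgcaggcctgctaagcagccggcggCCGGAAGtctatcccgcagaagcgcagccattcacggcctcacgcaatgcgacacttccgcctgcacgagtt
MRPS35: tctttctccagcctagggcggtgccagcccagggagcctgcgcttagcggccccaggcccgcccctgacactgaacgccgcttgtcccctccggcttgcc
MRPL3: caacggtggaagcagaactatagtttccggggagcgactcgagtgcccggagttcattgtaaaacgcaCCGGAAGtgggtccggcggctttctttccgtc
MRPS31: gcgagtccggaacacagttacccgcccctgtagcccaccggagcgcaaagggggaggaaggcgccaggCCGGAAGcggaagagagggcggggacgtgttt
MRPL48: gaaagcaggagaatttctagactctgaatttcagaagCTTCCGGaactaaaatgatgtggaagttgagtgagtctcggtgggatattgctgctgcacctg
MRPS18A: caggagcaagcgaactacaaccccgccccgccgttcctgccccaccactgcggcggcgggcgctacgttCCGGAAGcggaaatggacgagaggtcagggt

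MRPL20 held the motif 2 times in this stretch, and MRPS35, which ranked high in both lists, held none. MRPL48 and MRPS18A held it with no peak in either list.

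The letters AAGATGGC, the core of sites for YY1, were found in 21 of 69 members, or 30.4% (19.9 to 42.7), beside 4.15% of all promoters. By class they were found in 2 of 15 members with a TSS peak in both lists (13.3%, 1.66 to 40.5), beside 6.18% of all such promoters. They were found in 11 of 29 with one in shRRN3 alone (37.9%, 20.7 to 57.7), beside 8.29%. With no TSS peak it was 8 of 25 (32.0%, 14.9 to 53.5), beside 2.93%. The letters contain ATG, and the median match began at base 12 past the start. Of the 22 matches, 18 were on the gene's own strand, and in 13 of these the ATG was an annotated start codon of the member. The 13 members were MRPL22, MRPL38, MRPL45, MRPL46, MRPL49, MRPL50, MRPS7, MRPS10, MRPS18A, MRPS18B, MRPS24, MRPS27 and MRPS30.

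The match is shown with 6 bases on each side for 7 members, from those with a TSS peak in both lists (MRPL20, MRPL46), in shRRN3 alone (MRPS10, MRPS30) and in neither (MRPL42, MRPL45, MRPS18A), with AAGATGGC in capitals. The positions are chr1:1407265-1407284 (minus strand), chr15:88467367-88467386 (minus), chr6:42217839-42217858 (minus), chr5:44808954-44808973 (plus), chr12:93467516-93467535 (plus), chr17:38297175-38297194 (plus) and chr6:43687769-43687788 (minus).
MRPL20: ccgggcAAGATGGCagcggc
MRPL46: gaacgaAAGATGGCggcgcc
MRPS10: accggcAAGATGGCggcgcg
MRPS30: cgggcaAAGATGGCggcggc
MRPL42: tgaaacAAGATGGCgggttc
MRPL45: gggaacAAGATGGCagcccc
MRPS18A: tttttgAAGATGGCggccct

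In MRPL20 and MRPL42 the ATG of the match was not an annotated start codon, and in the other 5 it was.

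The other letters searched were less set apart from all promoters. GCGCATGC, a part of the site of NRF1, an activator of nuclear genes for respiration, was found in 6 members (8.70%, 3.26 to 18.0) beside 4.37% of all promoters. CCAAT, the core of the NF-Y site, was found in 20 of the 69 members beside 36.6% of all promoters, GGGCGG, the GC box, in 59.4% beside 61.8%, and TATAAA, the TATA box, in 3 members (4.35%) beside 9.42%. At least one of the ETS, NRF1 and YY1 motifs was found in 44 members (63.8%) beside 21.2% of all promoters. The median GC share of the windows was 60.3% in members and 63.7% over all promoters.

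**Figure D5:**
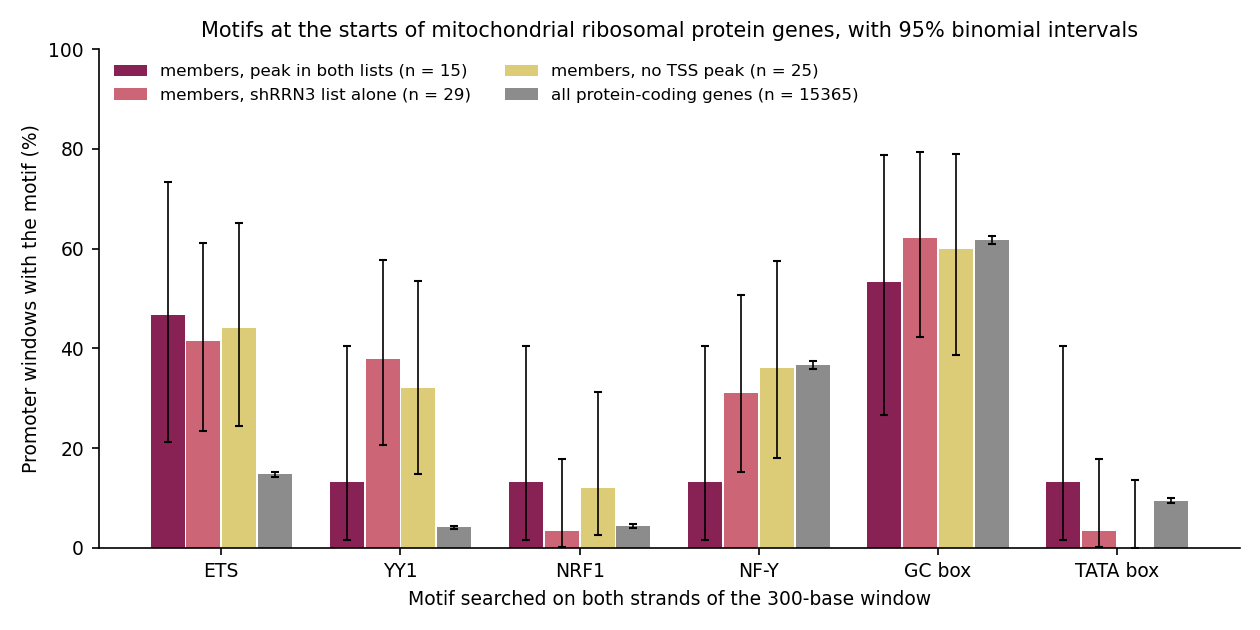
Share of 300-base promoter windows (%) with each motif, for members with a TSS peak in both lists, in shRRN3 alone or in neither, and for all protein-coding genes (grey), with exact 95% binomial intervals. The ETS shares of the members lie between 41.4% and 46.7% in the 3 classes, against 14.8% in all promoters, and the YY1 shares between 13.3% and 37.9%, against 4.15%. The grey bars of all protein-coding genes are not split by class.

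Other genes of mitochondrial translation were counted from fixed lists. Over all protein-coding genes, a TSS peak was found for 7.56% in shLacZ, 23.7% in shRRN3, 6.41% in both lists and 1.15% in shLacZ alone. Each list of 5 genes below had one in 20.0% in shLacZ (0.505 to 71.6) and 40.0% in shRRN3 (5.27 to 85.3). Of 5 mitoribosome proteins without an MRP name, DAP3, a small-subunit protein that binds GTP, had a TSS peak in shLacZ alone (73.0), AURKAIP1 (104) and PTCD3 (149) had one in shRRN3 alone, and CHCHD1 and GADD45GIP1 had none. Of 11 translation factors, 4 had a TSS peak in shLacZ (36.4%, 10.9 to 69.2) and 7 in shRRN3 (63.6%, 30.8 to 89.1), with 3 in both (27.3%). These 3 were MTIF3, an initiation factor, MTFMT, which formylates the initiator methionine, and MTRFR, a ribosome rescue factor, at percentiles 92.1, 78.9 and 85.2 in shRRN3. Of 25 factors for assembly of the mitoribosome or its RNA, 4 had a TSS peak in shLacZ (16.0%, 4.54 to 36.1) and 13 in shRRN3 (52.0%, 31.3 to 72.2). ERAL1 (77.6) and GRSF1 (70.9) had one in shLacZ alone, and MTG2, a GTPase of the large subunit, reached 225 in shRRN3. Of 5 genes for transcription of the mitochondrial genome, TEFM, an elongation factor, had a TSS peak in both lists (53.5 and 96.0), POLRMT, the mitochondrial RNA polymerase, in shRRN3 alone (122), and TFAM, TFB2M and MTERF1 in neither.

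The cytosolic ribosomal protein genes, 88 genes taken by RPL or RPS names, were set beside the members for the other ribosome. The name rule leaves out FAU and keeps any further letters after the digits other than K. The set is therefore not an exact list of that ribosome's genes. They had a TSS peak in 51 genes in shLacZ (58.0%, 47.0 to 68.4) and in 68 in shRRN3 (77.3%, 67.1 to 85.5). In shLacZ this interval did not overlap that of the members, and in shRRN3 it did. The number of genes with one was 1.33 times as high in shRRN3 as in shLacZ, against 2.72 times for the members. With 51 of 88 cytosolic genes already having a peak in shLacZ, their ratio could not have reached 2.72. The ratios therefore do not compare the change in the sets. The median percentile of their TSS peaks was 72.7 and 92.9, against 61.5 and 69.5 for the members. Past the gene end, 52.3% of the cytosolic genes (41.4 to 63.0) had a peak in shRRN3, against 8.97% of the members, and in the body 52.3% against 15.4%.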

How the data were processed

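Pol II ChIP-seq was performed in SK-OV-3 cells, with 1 Pol II and 1 input library for each of shLacZ and shRRN3. The deposited peak lists give coordinates and, for each peak, a score that the authors' peak caller assigned separately in each library. MACS is named in the peak names, and hg38 is the build in the submitters' processing notes. The caller's version, the aligner, the treatment of duplicates and the use of the input are not given in the sources used here. The score was read as 10 times −log10 of the p-value from its lowest values, 50.03 and 50. The lists hold no read counts, so depth is unknown.

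Peaks were placed by their midpoints against GENCODE release 44 (62663 genes, 20033 protein-coding), with the TSS and end taken as the bounds of a gene and the TSS window as 1 kb. A body peak lay inside the gene and over 1 kb from the TSS, and a downstream peak within 2 kb past the end. No test between hairpins was made, since each had 1 library. Shares have exact Clopper-Pearson intervals at 95%, which treat genes as independent. The named genes were the 12 members with the highest shLacZ score among those with a TSS peak there, the 10 with the highest shRRN3 score among those with one in shRRN3 alone, members with a TSS peak in shLacZ alone, the 10 highest with body or downstream peaks in each list, all members without a peak, RRN3 and 6 marker genes. Other members and neighbouring genes were named after their values were seen, as were the members whose sequences are printed. The members and lists were chosen with earlier results of these data known. The printed sequences are from RefSeq, and motif matches were exact. The window code was tested on simulated peaks. Alternatives were a stricter score, a shorter shRRN3 list, other windows, other starts, a stricter overlap and the removal of neighbouring starts, of which the removal of every annotated start was added after the data were seen. The tools were scipy 1.17.1, pandas 2.3.3, numpy 2.4.6 and matplotlib 3.10.9 under Python 3.11.15.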

Additional observations from a re-analysis of the deposited data

How the results depend on the processing

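No paired analysis was possible because a hairpin had a single Pol II library, and no replicate could be left out. Of 67 alternative values for 13 results, 54 stayed within 1.5 times and within the interval of the value reported, and 13 moved. With just the 3920 best shRRN3 peaks, the share of members with a TSS peak in shRRN3 was 29.5% and in shRRN3 alone 12.8%, the share in shLacZ alone was 6.41%, and body and downstream peaks in shRRN3 were found in 3.85% and 2.56%. Fewer peaks entered there by construction. The shLacZ list was unchanged in that setting, so the shares with a peak in shLacZ could not move and were counted among the 54. With scores of at least 66.05, body peaks in shRRN3 fell to 6.41% and downstream peaks to 3.85% of members. From the canonical start, 1.28% of members, MRPL36, had a TSS peak in shLacZ alone. An overlap of 50% of both peaks was met by 66.7% of the members' shLacZ TSS peaks. Within 0.5 kb past the end, 1.28% of members had a peak in each list, and within 5 kb 14.1% had one in shRRN3. Without peaks near another annotated start, 1.28% had a downstream peak in shLacZ. Without replicates, the lists cannot tell a hairpin's effect from the difference of 2 libraries, and a peak below the threshold is not seen.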
